A study of Mus musculus with 28 samples.

Results

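The 9 genes described here lie at or are named for risk loci of Alzheimer's disease (AD) and do not belong to the receptor chain of *Trem2*. They are *Bin1*, *Picalm*, *Sorl1*, *Abca7*, *Abi3*, *Ptk2b*, *Rin3*, *Cd2ap* and *Cass4*, and they were taken by symbol from a count table of 48587 genes. Each library of this table holds the RNA of FACS-isolated CD11b+CD45low hippocampal microglia from 1 mouse aged 16 weeks according to the labels. Per the study's methods, the sort used a lineage dump gate that included Ly6C and Ly6G, markers of monocytes and neutrophils. The 28 mice fall into 6 groups: among wild-type (WT) mice 5 specific pathogen free (SPF), 4 germ-free (GF) and 5 antibiotic-treated (ABX) ones, and among 5xFAD mice 3 SPF, 5 GF and 6 ABX ones. The 5xFAD mice were heterozygous males on a C57BL/6J background, and WT mice were their littermates without the transgenes. They carry mutant human APP and PS1 under the neuron-specific Thy-1 promoter, so the microglia themselves are not meant to express the transgenes. ABX mice drank vancomycin, cefoxitin, gentamicin and metronidazole for 8 weeks before the analysis. GF mice were bred in Bern and all others in Freiburg, and what GF housing and what the breeding site contributed cannot be told apart.

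As background, most of these genes act where a cell takes up and sorts membrane cargo or moves its actin skeleton. *Picalm*, *Bin1*, *Cd2ap* and *Rin3* work at clathrin-coated pits and early endosomes, and *Sorl1* encodes a receptor that sorts the amyloid precursor protein between endosomes and the Golgi. *Ptk2b* and *Cass4* belong to signalling at integrin adhesions, *Abi3* to actin branching, and *Abca7* to lipid transport. Microglia are the resident phagocytes of the brain, and they take up amyloid.

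All 9 genes were detected in all 28 libraries and passed the filter on low counts, as did 15298 of the 48587 genes. Levels are CPM values, counts set to the size of the library after TMM scaling, and for comparisons between genes they were divided by the exon length. Per kilobase, *Bin1* was the highest of the 9 with 350.3 CPM per kilobase, above 99.5% of the genes tested. *Abi3* followed with 45.07, *Ptk2b* with 22.64 and *Picalm* with 18.97 CPM per kilobase. The remaining 5 genes lay close together, from 10.6 for *Rin3* over 9.066 for *Cd2ap*, 8.746 for *Abca7* and 7.516 for *Cass4* to 6.989 CPM per kilobase for *Sorl1*.

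**Figure D1:**
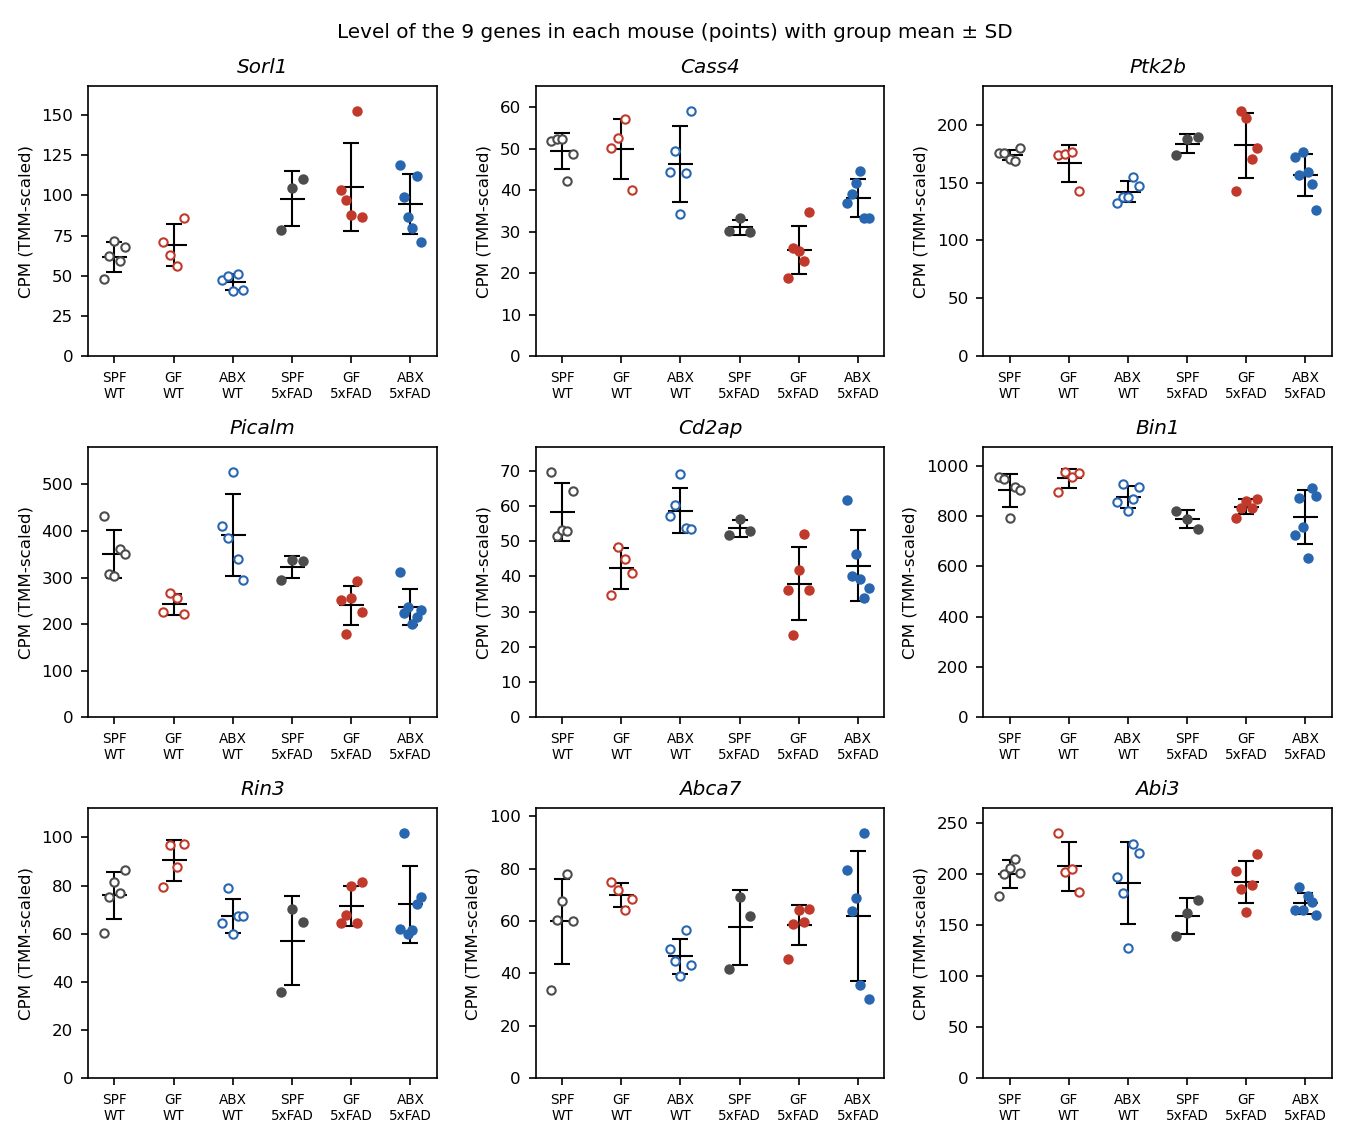
Level of each of the 9 genes (y axis, TMM-scaled CPM, starting at 0) in the 6 groups, with open points for WT mice, filled points for 5xFAD mice and bars for the group mean ± SD. *Sorl1* lies higher in 5xFAD than in WT mice of every condition, *Cass4* lies lower under SPF and GF conditions, and *Picalm* is low in GF WT, GF 5xFAD and all but 1 of the ABX 5xFAD mice.

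Total reads on genes ranged from 14441610 to 29977395 per library. The summed level of 8 microglia markers, *Cx3cr1* and *P2ry12* among them, ranged over 58270 to 64770 CPM in WT libraries and over 46780 to 57660 CPM in 5xFAD libraries. In such bulk samples fewer cells of a type and less RNA per cell cannot be told apart. The 8 neutrophil markers summed to 67.3 to 282 CPM in the SPF 5xFAD mice and to 155.3 CPM in mouse FAD_ABX_1151, and to at most 0.294 CPM in every other library, although cells with Ly6G, a neutrophil protein, were gated out. The 4 monocyte markers summed to 15.53 to 38.87 CPM in SPF 5xFAD against 6.128 to 8.423 CPM in SPF WT mice, to 14.35 to 51.91 against 2.085 to 9.051 CPM with ABX, and to 5.98 to 24.94 against 3.4 to 16.55 CPM under GF conditions. Of these markers, *Ly6c2* reached at most 1.01 and *Plac8* 2.35 CPM in any library, against 50.8 for *Ccr2* and 29.6 CPM for *Chil3*. The 7 markers of border-associated macrophages summed to 276.5 to 592.7 CPM in SPF, 296.7 to 581.6 in GF and 581.2 to 847.3 CPM in ABX 5xFAD mice, and to 454.6 to 621.3, 643 to 791 and 403.2 to 579.5 CPM in the matching WT mice. Their sum is mostly *Stab1* (254 to 760 CPM), while *Mrc1* had a median of 8.53 and *Cd163* of 2.06 CPM over the libraries. Sums of astrocyte and endothelial markers were lower in GF 5xFAD mice (154.8 to 189.1 and 9.419 to 21.44 CPM) than in GF WT mice (228.5 to 298.4 and 28.59 to 35.9 CPM), and consist mostly of *Slc1a3* and *Pecam1*, with *Gja1* and *Cldn5* at a median of 0. The endothelial sum was also lower in SPF 5xFAD (24.14 to 29.94 CPM) than in SPF WT mice (31.35 to 44.23 CPM), and the sum of 5 T cell markers was 0.8845 to 2.963 CPM in GF 5xFAD against 0 to 0.6347 CPM in GF WT mice, with 4 of the 5 at 0 in all GF mice. The library descriptions follow 3 numbering styles, and the sources used here do not say whether these mark batches. The first style covers the SPF WT and ABX WT groups, the second the SPF 5xFAD group plus mouse FAD_ABX_1151, and the third both GF groups plus the 5 remaining ABX 5xFAD mice. Style and group can therefore be told apart without recourse to a single mouse only for 5xFAD against WT in GF mice, for ABX against SPF in WT mice, and for ABX against GF in 5xFAD mice without FAD_ABX_1151. Mouse FAD_GF_201 is a 5xFAD mouse by title and genotype and a WT mouse by its description, and it was used as a GF 5xFAD mouse.

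To see which of the 9 genes differed with genotype, 5xFAD mice were compared with WT mice in each condition by edgeR's quasi-likelihood test with Benjamini-Hochberg adjustment over all genes tested. *Sorl1* was higher and *Cass4* lower in 5xFAD microglia under SPF conditions, which makes 2 of 9 genes called where 4.57% of all genes tested were (3.73% higher and 0.837% lower). Again *Sorl1* was higher and *Cass4* lower under GF conditions, 2 of 9 genes beside 15.6% of all genes (9.43% higher and 6.2% lower). In ABX mice *Sorl1* was higher while *Picalm* and *Cd2ap* were lower, 3 of 9 genes beside 14.4% of all genes (9.45% higher and 4.98% lower). The 9 genes had median log2 fold changes of -0.121 under SPF, -0.158 under GF and -0.14 under ABX conditions, against -0.027, -0.0255 and -0.0127 over all genes tested.

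**Figure D2:**
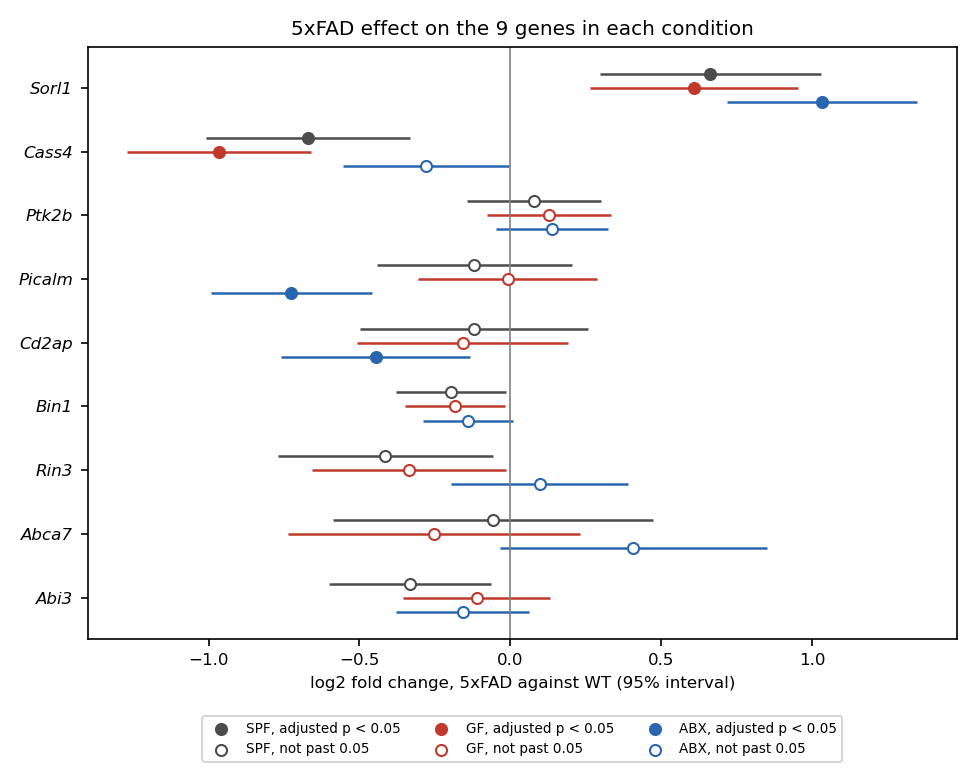
Log2 fold change with genotype, 5xFAD relative to WT (x axis), with its 95% interval for each of the 9 genes in SPF, GF and ABX mice, filled where the adjusted p is under 0.05. *Sorl1* lies at 0.66, 0.61 and 1.03, *Cass4* at -0.67, -0.97 and -0.28, and *Picalm* leaves 0 in ABX mice with -0.73.

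*Sorl1* (chr9:41964720-42124297 on the minus strand of GRCm38) encodes a sorting receptor of the VPS10 family. Its level in WT mice was 47.76, 62.4, 71.86, 59.16 and 67.65 CPM under SPF conditions, 71.22, 62.97, 56.09 and 86.2 CPM under GF conditions, and 47.32, 50.01, 40.82, 51.38 and 41.27 CPM with ABX. The 3 SPF 5xFAD mice had 78.3, 104.5 and 110.4 CPM and the 5 GF 5xFAD mice 103.4, 97.06, 87.52, 152.6 and 86.29 CPM. The 6 ABX 5xFAD mice had a lowest level of 70.84, a median of 92.97 and a highest of 119.1 CPM. Every 5xFAD mouse was thus above every WT mouse of its own condition, a separation that 16.9% of all genes showed in either direction under SPF, 14.8% under GF and 6.84% under ABX conditions. The margin was narrow in GF mice, where mouse FAD_GF_201 with 86.29 CPM lay next to the highest WT mouse with 86.2 CPM. On library totals without TMM scaling the GF ranges overlapped, with 5xFAD mice from 82.05 and WT mice up to 88.2 CPM.

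The log2 fold change of *Sorl1* was 0.66 (95% interval 0.296 to 1.03, adjusted p = 0.0255) in SPF, 0.61 (0.263 to 0.954, adjusted p = 0.0122) in GF and 1.03 (0.719 to 1.35, adjusted p = 1.67e-05) in ABX mice. Of all genes tested, 3.1% passed in all 3 conditions in 1 direction, and *Sorl1* was the only one of the 9 to do so. The interaction between genotype and condition was -0.0542 (-0.559 to 0.45, adjusted p = 0.977) for GF against SPF, 0.37 (-0.114 to 0.858, adjusted p = 0.793) for ABX against SPF and 0.43 (-0.0349 to 0.888, adjusted p = 0.358) for ABX against GF mice. The size of the 5xFAD effect was therefore not shown to differ between conditions. All 9 libraries of the GF comparison belong to the third numbering style. Between its groups the neutrophil sums were at most 0.0907 CPM, while those of border-associated macrophages, astrocytes and endothelial cells were lower and those of T cells higher in 5xFAD mice without overlap, and in ABX mice those of monocytes and border-associated macrophages were higher in 5xFAD mice without overlap. The part of these markers in the differences of *Sorl1*, *Cass4* and *Picalm* was not tested. The ABX call held in all 39 alternatives tried. The SPF call was lost without mouse WT_SPF_912 (adjusted p = 0.0788), WT_SPF_928 (0.0547), FAD_SPF_1146 (0.103) or FAD_SPF_1148 (0.15), and the GF call without WT_GF_230 (0.0588) or FAD_GF_185 (0.0549).

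Among WT mice, *Sorl1* was lower with ABX than under GF conditions by 0.58 on the log2 scale (adjusted p = 0.0342), and the ranges of these groups did not overlap, as for 10.9% of all genes. It was 1 of 2 of the 9 genes called in this comparison, beside 6.88% of all genes. ABX and SPF WT mice had means of 46.16 ± 4.9 and 61.76 ± 9.22 CPM (SD, n = 5 each), a log2 difference of -0.42 with an unadjusted p of 0.013 and an adjusted p of 1. The order of the group means from low to high was ABX WT, SPF WT, GF WT, ABX 5xFAD, SPF 5xFAD and GF 5xFAD. Neighbours among the WT groups and among the 5xFAD groups did not pass the test against each other, and the step from GF WT to ABX 5xFAD mice was not tested. The call of ABX against GF WT mice was lost with offsets for GC content (-0.55, adjusted p = 0.0865) and without WT_GF_199, WT_GF_229, WT_GF_231, WT_ABX_909, WT_ABX_911 or WT_ABX_932, where the adjusted p reached 0.139. Sums of border-associated macrophage markers were also lower, with 403.2 to 579.5 CPM in ABX against 643 to 791 CPM in GF WT mice. Those of oligodendrocyte markers were 163 to 167.5 against 173.8 to 188.7 CPM. The part of these markers in this difference was not tested.

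*Cass4* (chr2:172393794-172433757, plus strand) encodes a docking protein of the Cas family, which gathers kinases at adhesions. WT mice had 51.84, 52.27, 52.32, 42.15 and 48.81 CPM under SPF conditions, 50.11, 52.54, 57.06 and 40.04 CPM under GF conditions, and 44.35, 49.49, 34.34, 44.17 and 59.15 CPM with ABX. The SPF 5xFAD mice had 30.08, 33.2 and 29.99 CPM, and the GF 5xFAD mice 18.9, 26.03, 25.44, 22.85 and 34.66 CPM. The ranges of the 3 WT groups overlapped, while every SPF and every GF 5xFAD mouse was below every WT mouse of its condition. Such a separation, in either direction, was seen for 16.9% of all genes under SPF and 14.8% under GF conditions. In the 6 ABX 5xFAD mice the lowest level was 33.33, the median 37.99 and the highest 44.62 CPM. These overlapped with the ABX WT mice and lay above all 3 SPF 5xFAD mice.

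Between 5xFAD and WT mice the log2 fold change of *Cass4* was -0.67 (-1.01 to -0.331, adjusted p = 0.0124) in SPF and -0.97 (-1.27 to -0.661, adjusted p = 2.3e-05) in GF mice, and -0.28 (-0.553 to -0.00467, adjusted p = 0.172) in ABX mice. Between the 5xFAD groups, *Cass4* was higher with ABX than under GF conditions by 0.58 (0.3 to 0.857, adjusted p = 0.00765). It was the single gene of the 9 called there, beside 10.6% of all genes. The difference was 0.6 (adjusted p = 0.0144) without mouse FAD_ABX_1151, which leaves the libraries of the third style, and 0.63 (adjusted p = 0.00728) over the 26 mice without FAD_ABX_1151 and FAD_ABX_1482. A fit of only these 2 groups gave 0.61 with an adjusted p of 0.0612. Astrocyte marker sums were 212.4 to 301.7 CPM in the ABX and 154.8 to 189.1 CPM in the GF 5xFAD mice. Those of border-associated macrophages were 581.2 to 847.3 and 296.7 to 581.6 CPM. The part of these markers in this difference was not tested. The corresponding interaction, ABX against GF, was 0.69 (0.276 to 1.1) with an adjusted p of 0.0701. It passed with DESeq2 (adjusted p = 0.0244) and without mouse WT_ABX_932 (0.0331) or mouse FAD_GF_201 (0.0186), the GF 5xFAD mouse with the highest *Cass4* level and with the WT description.

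The call of *Cass4* in GF mice held in all 39 alternatives tried. In SPF mice it was lost without mouse FAD_SPF_1144 (adjusted p = 0.0842) or FAD_SPF_1148 (0.0809). ABX and SPF 5xFAD mice had means of 38.17 ± 4.53 (SD, n = 6) and 31.09 ± 1.83 CPM (SD, n = 3). Their ranges did not overlap, as for 2.39% of all genes, by a margin of 33.33 against 33.2 CPM, and the log2 difference of 0.3 had an adjusted p of 0.734. On library totals they overlapped, with ABX mice from 31.57 and SPF mice up to 33.4 CPM. Neutrophil, monocyte and endothelial markers, the last of them lower, and the second numbering style go together with the SPF 5xFAD mice, and their part in the SPF results of *Cass4* and *Sorl1* was not tested.

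*Ptk2b* (chr14:66153257-66281052, minus strand), the focal adhesion type tyrosine kinase also called Pyk2, showed no difference past the threshold between 5xFAD and WT mice, with log2 fold changes of 0.08 (-0.143 to 0.302) in SPF, 0.13 (-0.0776 to 0.333) in GF and 0.14 (-0.0474 to 0.324) in ABX mice. Its lowest group mean was that of the ABX WT mice. SPF WT mice had 175.2, 175.4, 170.4, 168.3 and 179.8 CPM, and ABX WT mice 132.5, 137.9, 137.4, 155 and 147.4 CPM. All ABX WT mice were below all SPF WT mice, a separation seen in either direction for 1.22% of all genes tested, and both groups share the first numbering style. The log2 difference was -0.29 (-0.485 to -0.0973) with an unadjusted p of 0.00458, and its adjusted p was 1.

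GF WT mice had 173.5, 174.6, 176.1 and 142.9 CPM of *Ptk2b*. Among 5xFAD mice the SPF group had 174, 187.4 and 189.5 CPM and the GF group 143, 212.1, 206, 170 and 179.9 CPM. ABX 5xFAD mice ranged from 126.1 over a median of 157.6 to 176 CPM and overlapped with both. The log2 difference of ABX to SPF 5xFAD mice was -0.23 (-0.447 to -0.0178, adjusted p = 0.666) and to GF 5xFAD mice -0.22 (-0.406 to -0.0363, adjusted p = 0.114). Over all 6 groups *Ptk2b* passed the F test (adjusted p = 0.0219), and lost that call with library size alone (0.0948), without a filter on low counts (0.0594), with GC content offsets (0.1) and without WT_ABX_909 (0.0676), WT_ABX_910 (0.0589) or WT_ABX_911 (0.0548). Of the 9 genes, 5 passed this F test, beside 33.2% of all genes: *Sorl1* (adjusted p = 4.52e-06), *Cass4* (1.6e-05), *Picalm* (8.81e-05), *Cd2ap* (0.00651) and *Ptk2b*.

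*Picalm* (chr7:90130213-90213465, plus strand) encodes a clathrin assembly protein that gathers clathrin and cargo at the plasma membrane. SPF WT mice had 432, 307.5, 303, 361.7 and 349.8 CPM and ABX WT mice 410.8, 385.3, 527.4, 338.9 and 294.1 CPM, while GF WT mice had 225, 267.1, 256.2 and 220.9 CPM. The SPF 5xFAD mice had 295.2, 338.3 and 335.4 CPM and the GF 5xFAD mice 251.3, 178.4, 256.3, 291.8 and 226.7 CPM. Of the 6 ABX 5xFAD mice, FAD_ABX_1151 had 311.5 CPM and the other 5 lay between 200.6 and 236.2 CPM. The GF mice of both genotypes were below all SPF mice of their genotype, where 10.7% of all genes in WT and 19.6% in 5xFAD mice had ranges that did not overlap, and mouse FAD_ABX_1151 fell in the range of the SPF mice.

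*Picalm* was lower in ABX 5xFAD than in ABX WT mice, by 0.73 on the log2 scale (-0.993 to -0.459, adjusted p = 0.000214), and did not pass in SPF (-0.12, -0.443 to 0.204, adjusted p = 0.86) or GF mice (-0.00828, -0.305 to 0.288, adjusted p = 0.983). Among WT mice it was higher with ABX than under GF conditions by 0.69 (0.391 to 0.992, adjusted p = 0.00582). The differences of GF to SPF mice were -0.53 (adjusted p = 0.0574) in WT and -0.42 (adjusted p = 0.0721) in 5xFAD mice, and that of ABX to SPF 5xFAD mice was -0.45 (adjusted p = 0.61). The interaction of ABX against GF was -0.72 (-1.12 to -0.317, adjusted p = 0.0517). Over the 26 mice without FAD_ABX_1151 and FAD_ABX_1482 the GF differences passed in WT (adjusted p = 0.0254) and in 5xFAD mice (0.0471), and so did this interaction (-0.83, adjusted p = 0.0253). Neither mouse belongs to the groups of these GF differences, which stayed at -0.53 and -0.42, so only the shared spread and the adjustment moved. Without FAD_ABX_1151 the interaction cannot be told apart from the numbering style.

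*Cd2ap* (chr17:42792951-42876424, minus strand), an adaptor that ties receptors under endocytosis to the actin skeleton, ran alongside. Its levels were 69.73, 51.39, 53.16, 52.91 and 64.1 CPM in SPF WT, 34.81, 48.26, 45.05 and 41.01 CPM in GF WT, and 57.05, 60.12, 69.1, 53.61 and 53.45 CPM in ABX WT mice. SPF 5xFAD mice had 51.75, 56.17 and 52.83 CPM and GF 5xFAD mice 35.99, 23.4, 41.94, 51.91 and 36.01 CPM. Mouse FAD_ABX_1151 had 61.55 CPM and the other 5 ABX 5xFAD mice 33.93 to 46.48 CPM. GF WT mice were below all SPF WT mice here too, where 10.7% of all genes had ranges that did not overlap. Mouse FAD_ABX_1151 lay above all SPF 5xFAD mice and in the range of the SPF WT mice. The 5xFAD effect in ABX mice was -0.45 (-0.759 to -0.133, adjusted p = 0.0482), and this call was lost in 27 of 39 alternatives. Those of GF against SPF were -0.46 (adjusted p = 0.151) in WT and -0.5 (adjusted p = 0.0691) in 5xFAD mice. Over the 26 mice the latter passed with an adjusted p of 0.038 at an unchanged -0.5, as the dropped mice are in neither group.

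*Picalm* and *Cd2ap* followed the numbering styles of the libraries. *Picalm* was between 178.4 and 291.8 CPM in all 14 libraries of the third style and between 294.1 and 527.4 CPM in the 14 others, a separation in this direction that 28 of the 15298 genes (0.183%) showed. For *Cd2ap*, 1 of the 14 libraries of the third style, with 51.91 CPM, exceeded the lowest of the others with 51.39 CPM. In the 3 comparisons that lie within 1 style, *Picalm* differed by -0.00828 between GF 5xFAD and GF WT mice, by 0.16 (adjusted p = 1) between ABX and SPF WT mice and by -0.11 (adjusted p = 0.674) between ABX and GF 5xFAD mice without FAD_ABX_1151. Those of *Cd2ap* were -0.16 (adjusted p = 0.599), 0.00951 (adjusted p = 1) and 0.0668 (adjusted p = 0.845). For 5xFAD against WT in SPF and in ABX mice, and for GF against SPF and against ABX in WT mice, the style and the group cannot be told apart. GF and ABX can be set against SPF 5xFAD mice apart from the style only through mouse FAD_ABX_1151. A fit with a term for the second style, which rests on that mouse, put GF against SPF 5xFAD mice at 0.0684 for *Picalm* and at 0.14 for *Cd2ap*, and ABX against SPF 5xFAD mice at -0.0522 and 0.2, each with an adjusted p of 1.

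The base composition of the transcripts moved with these values. The exons of *Cd2ap* hold 38.6% and those of *Picalm* 42% G and C, lower than all but 3.16% and 11.6% of the genes tested, whereas the other 7 genes range from 50.8% in *Sorl1* to 59.6% in *Abi3*. The median log2 level of the quartile of genes lowest in GC minus that of the highest quartile, with each gene centred over the libraries, was -0.452 to 0.0662 in the third style, 0.0704 to 0.648 in the first and 0.0673 to 0.296 in the second. The third style thus ended at 0.0662 where the second began at 0.0673. Within the third style, mouse FAD_ABX_1455 had the highest balance with 200.6 CPM of *Picalm*, and FAD_ABX_1482 the lowest with 230.9 CPM. The highest *Picalm* level of that style, 291.8 CPM in FAD_GF_185, went with a balance of -0.279. With offsets for GC content, the 5xFAD effect in ABX mice was -0.51 (adjusted p = 0.00299) for *Picalm* and -0.12 (adjusted p = 0.64) for *Cd2ap*. Under the same offsets, ABX against GF WT mice gave 0.4 (adjusted p = 0.114) for *Picalm*, and the F test over the 6 groups lost *Cd2ap* (adjusted p = 0.786). By exon length, *Picalm* exceeds 98.5% of the genes tested. The balance of the longest minus the shortest quartile of genes was -0.352 to -0.0938 in GF and -0.022 to 0.214 in SPF 5xFAD mice. It overlapped between GF and SPF WT mice. The part of base composition, of exon length and of the numbering style in the differences of *Picalm* and *Cd2ap* was not tested further.

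**Figure D3:**
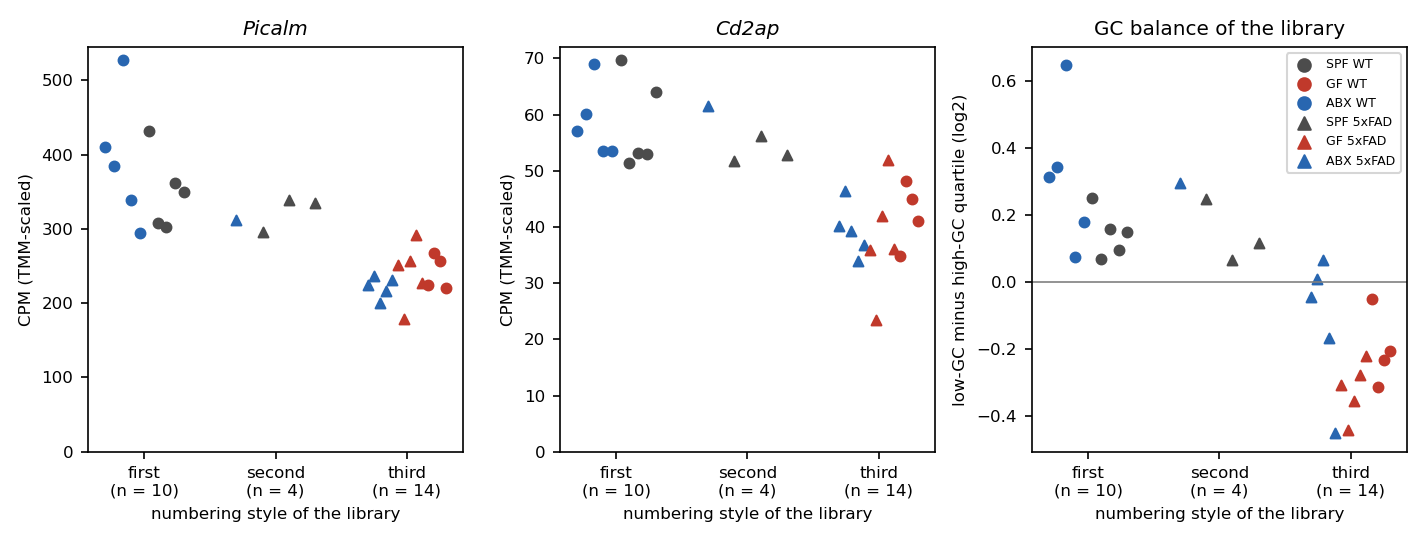
Levels of *Picalm* and *Cd2ap* (y axis, TMM-scaled CPM) and the GC balance of each library (y axis, median centred log2 level of the lowest minus the highest GC quartile of genes) by numbering style, with colours for the condition and triangles for 5xFAD mice. The 14 libraries of the third style hold the lowest *Picalm* levels, up to 291.8 CPM, and GC balances from -0.452 to 0.0662.

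**Figure D4:**
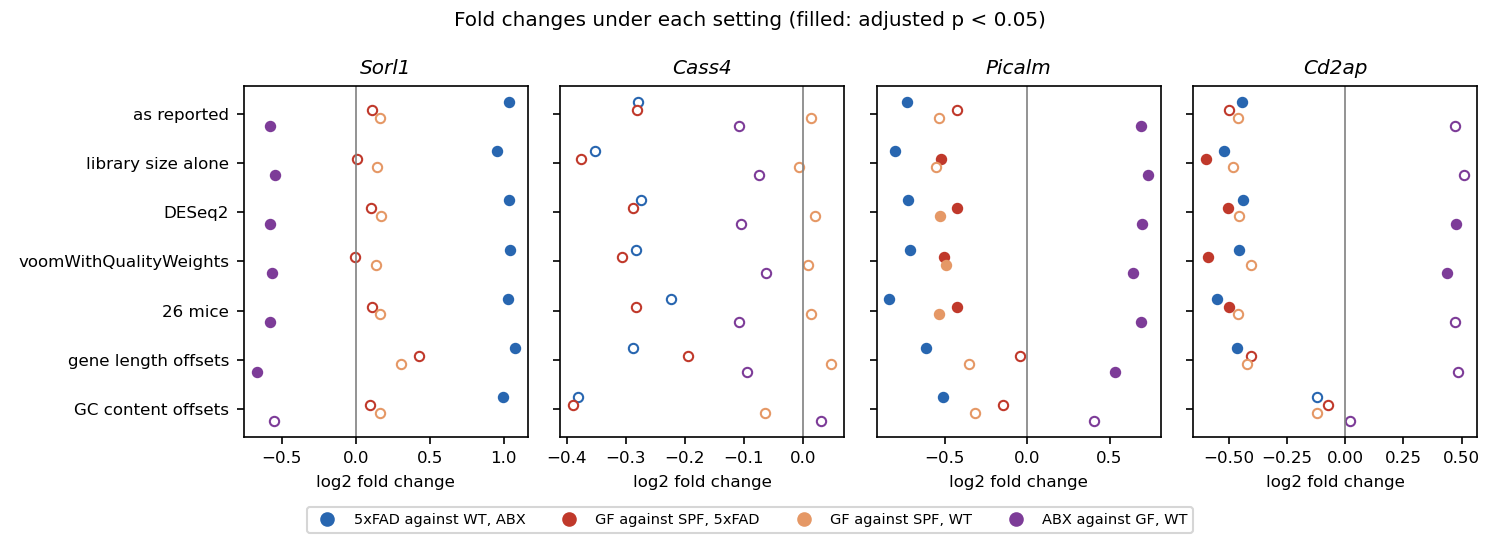
Log2 fold changes (x axis) of *Sorl1*, *Cass4*, *Picalm* and *Cd2ap* in 4 comparisons (colours) under the reported setting and 6 others (rows), filled where the adjusted p is under 0.05. The values of *Sorl1* move little in ABX mice, and those of *Cd2ap* come close to 0 with GC content offsets, at -0.12 in ABX mice.

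The 300 bases around the start sites of *Picalm* and *Cd2ap*, which ran alongside each other, and of *Sorl1* and *Cass4*, which were called in opposite directions, are printed here from RefSeq on GRCm38.p6, each from 250 bases before to 50 bases after the RefSeq start. For *Cass4* that start lies upstream of the gene start given above, and the window ends before the latter. Capitals mark CACGTG, the palindromic core of an E-box, which therefore reads the same on either strand.
Picalm promoter, chr7:90129963-90130262, plus strand: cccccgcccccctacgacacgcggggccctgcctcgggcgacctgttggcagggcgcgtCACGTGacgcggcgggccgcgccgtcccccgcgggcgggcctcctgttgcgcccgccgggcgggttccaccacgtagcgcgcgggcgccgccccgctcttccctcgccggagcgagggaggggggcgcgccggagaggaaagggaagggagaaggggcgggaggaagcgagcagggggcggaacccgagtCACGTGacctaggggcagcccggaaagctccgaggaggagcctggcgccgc
Cd2ap promoter, chr17:42876375-42876674, minus strand: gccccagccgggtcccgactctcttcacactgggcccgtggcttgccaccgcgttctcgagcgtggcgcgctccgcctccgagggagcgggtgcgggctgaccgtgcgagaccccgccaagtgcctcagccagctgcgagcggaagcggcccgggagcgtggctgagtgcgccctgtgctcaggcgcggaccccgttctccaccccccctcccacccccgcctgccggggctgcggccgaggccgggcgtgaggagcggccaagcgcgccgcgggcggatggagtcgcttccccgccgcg
Sorl1 promoter, chr9:42124248-42124547, minus strand: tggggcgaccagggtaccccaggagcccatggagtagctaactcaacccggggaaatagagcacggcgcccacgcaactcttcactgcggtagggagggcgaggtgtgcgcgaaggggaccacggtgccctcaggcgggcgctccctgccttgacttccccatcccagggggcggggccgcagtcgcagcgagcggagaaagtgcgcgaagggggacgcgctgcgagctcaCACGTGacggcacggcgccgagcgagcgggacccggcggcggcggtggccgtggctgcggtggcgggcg
Cass4 promoter, chr2:172393394-172393693, plus strand: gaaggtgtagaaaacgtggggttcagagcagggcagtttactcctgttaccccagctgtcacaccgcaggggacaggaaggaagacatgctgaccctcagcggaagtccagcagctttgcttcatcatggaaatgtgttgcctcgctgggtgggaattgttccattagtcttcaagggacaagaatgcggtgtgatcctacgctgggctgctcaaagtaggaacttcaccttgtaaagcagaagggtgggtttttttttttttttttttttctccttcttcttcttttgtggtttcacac
The promoters of *Picalm*, *Cd2ap* and *Sorl1* printed above are rich in CG pairs, with 44, 41 and 37 of them, and that of *Cass4* has 6, where the median of 32851 promoters of this length was 7. *Picalm* holds CACGTG at 2 places and *Sorl1* at 1, while *Cd2ap* and *Cass4* hold none in this window. The promoters of *Abca7* and *Rin3* hold none either, which leaves 2 of the 6 genes with a RefSeq promoter. Of all promoters, 7.15% hold it. The motif was chosen after the sequences were seen, and its matches are a description of the letters. Promoters of 6 of the 9 genes matched the RefSeq table, which holds another promoter of *Sorl1* (chr9:42077164-42077463, minus strand) with 9 CG pairs and 0 matches of CACGTG.

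*Bin1*, on chromosome 18 (chr18:32377217-32435736, plus strand), encodes a protein that binds and bends membranes at endocytic tubules. Its mean level was lower in 5xFAD than in WT mice in every condition, with 787.5 ± 35.8 (SD, n = 3) against 902.5 ± 65.2 CPM (SD, n = 5) in SPF, 837 ± 29.8 (SD, n = 5) against 950.2 ± 37.1 CPM (SD, n = 4) in GF and 796.3 ± 108 (SD, n = 6) against 877.5 ± 43.2 CPM (SD, n = 5) in ABX mice. In GF mice the ranges did not overlap, from 791.7 to 867.6 in 5xFAD and from 895.9 to 977.1 CPM in WT, as for 14.8% of all genes. The log2 fold changes were small, -0.2 (-0.378 to -0.0151, adjusted p = 0.286) in SPF, -0.18 (-0.348 to -0.0176, adjusted p = 0.131) in GF and -0.14 (-0.289 to 0.00925, adjusted p = 0.214) in ABX mice, and none passed. Scaling by library size alone gave -0.31 (adjusted p = 0.00368) in GF mice, a setting that moves the median of all genes there from -0.0255 to -0.15. With GC content offsets *Bin1* passed in GF (-0.21, adjusted p = 0.0495) and ABX mice (-0.31, adjusted p = 0.00198), and with voomWithQualityWeights in SPF mice (-0.22, adjusted p = 0.00888).

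*Rin3* (chr12:102283048-102390855, plus strand), which activates the early endosomal GTPase Rab5, had its highest mean in GF WT mice with 90.42 ± 8.51 CPM (SD, n = 4) and its lowest in SPF 5xFAD mice with 57.05 ± 18.5 CPM (SD, n = 3). The latter rests on mouse FAD_SPF_1144 with 35.95 CPM, whereas the other SPF 5xFAD mice had 70.29 and 64.92 CPM. The 5xFAD effect was -0.41 (-0.771 to -0.0563, adjusted p = 0.238) in SPF, where it was -0.16 (adjusted p = 0.905) without FAD_SPF_1144, -0.34 (-0.659 to -0.0144, adjusted p = 0.157) in GF and 0.0971 (-0.196 to 0.39, adjusted p = 0.722) in ABX mice. Among WT mice, all ABX values (59.77 to 78.82 CPM) were below all GF values (79.59 to 97.4 CPM), with a log2 difference of -0.42 (adjusted p = 0.102). Such a separation, in either direction, was seen for 5 of the 9 genes in this comparison, beside 10.9% of all genes. The log2 difference of *Rin3* ranged from -0.48 to -0.19 over 39 alternatives and passed in 2 of them, with a lowest adjusted p of 0.028.

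*Abi3* (chr11:95830074-95842476, minus strand), a relative of the Abl interactors of the actin-branching WAVE complex, was lower in all SPF 5xFAD mice (139.6, 162.5 and 174.9 CPM) than in all SPF WT mice (178.9 to 215.2 CPM). With *Sorl1* and *Cass4* it was 1 of 3 genes whose ranges did not overlap there, beside 16.9% of all genes. The log2 fold change of -0.33 (-0.602 to -0.0655) did not pass (adjusted p = 0.186). GF mice gave -0.11 (-0.355 to 0.132, adjusted p = 0.594) and ABX mice -0.16 (-0.378 to 0.062, adjusted p = 0.367), where mouse WT_ABX_911 with 128.2 CPM was the lowest of all 28. *Abi3* passed in SPF mice with voomWithQualityWeights (-0.28, adjusted p = 0.0288) and in ABX mice with GC content offsets (-0.32, adjusted p = 0.0349).

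*Abca7* (chr10:79996494-80015572, plus strand), a lipid transporter of the ABCA family, had the widest intervals of the 9 genes in these comparisons. ABX 5xFAD mice ranged from 30.08 over a median of 66.21 to 93.73 CPM, and SPF WT mice had 33.86, 60.29, 67.56, 77.76 and 60.12 CPM. None of its differences passed, the 5xFAD effect being -0.0576 (-0.588 to 0.473) in SPF, -0.25 (-0.738 to 0.231) in GF and 0.41 (-0.0348 to 0.851) in ABX mice. Among WT mice *Abca7* was at 39.1 to 56.43 CPM with ABX, below the 64.03 to 74.98 CPM of GF mice, a log2 difference of -0.58 (-1.07 to -0.0979, adjusted p = 0.133) that passed in a fit of only these groups (adjusted p = 0.00983). Over the 6 groups its F test gave an adjusted p of 0.429, the highest of the 9.

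The microbiota conditions were then compared within each genotype. Between GF and SPF mice, edgeR called 0 of 9 in 5xFAD mice, where 12.8% of all genes passed, and 0 of 9 in WT mice, where 1.62% did. At an unadjusted p under 0.05 the counts were 3 and 2, beside 26.8% and 16.6% of all genes. DESeq2 called 2 and 1, beside 20.2% and 5.73% of the genes to which it gave an adjusted p, and voomWithQualityWeights 2 and 1, beside 25.3% and 10.7% of all genes. ABX against SPF gave 0 of 9 genes in either genotype beside 0% of all genes, with 2 genes at an unadjusted p under 0.05 in each, beside 7.09% of all genes in 5xFAD and 4.49% in WT mice. There DESeq2 called 0 in both (beside 0.0533% and 0.0131%), and voomWithQualityWeights 1 in 5xFAD (beside 0.876%) and 0 in WT mice (beside 0%). The interactions gave 0 of 9 genes throughout, beside 1.76% of all genes for ABX against GF and 0% for the comparisons with SPF. At an unadjusted p under 0.05 these counts were 3 for ABX against GF, 0 for GF against SPF and 2 for ABX against SPF, beside 15.9%, 8.52% and 6.75% of all genes. DESeq2 called 2 genes, *Picalm* and *Cass4*, in the interaction of ABX with GF mice, beside 4.36% of the genes with an adjusted p, and 0 in the others (0.167% and 0.00654%). With voomWithQualityWeights 0 were called in all 3, beside 1.84%, 0.758% and 0.0915% of all genes.

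Relatives of the 9 genes give the range of paralogs that these microglia express. *Bin2* was as high as *Bin1*, with 357.6 and 350.3 CPM per kilobase, and *Bin3* reached 31.35, while *Amph* had 0.00624. For the Ras interactor family *Rin2* had 85.61 and *Rinl* 21.91, against 10.6 CPM per kilobase for *Rin3*. *Sort1* with 48.29 exceeded *Sorl1*, *Abca1* with 35.5 exceeded *Abca7*, and *Sh3kbp1* with 20.45 exceeded *Cd2ap*. In other families the risk gene led. *Ptk2*, encoding focal adhesion kinase, had 1.304 CPM per kilobase against 22.64 for *Ptk2b*, and *Snap91* had 0.017 against 18.97 for *Picalm*. *Nedd9*, the next of the Cas family, had 0.707 against 7.516 for *Cass4*. *Abi3* with 45.07 was above *Abi1* with 32.69 and *Abi2* with 4.869 CPM per kilobase. *Rin1* had 0.0932 CPM per kilobase, and *Sorcs1*, *Sorcs2*, *Sorcs3*, *Bcar1* and *Efs* were at most at 0.0218.

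**Figure D5:**
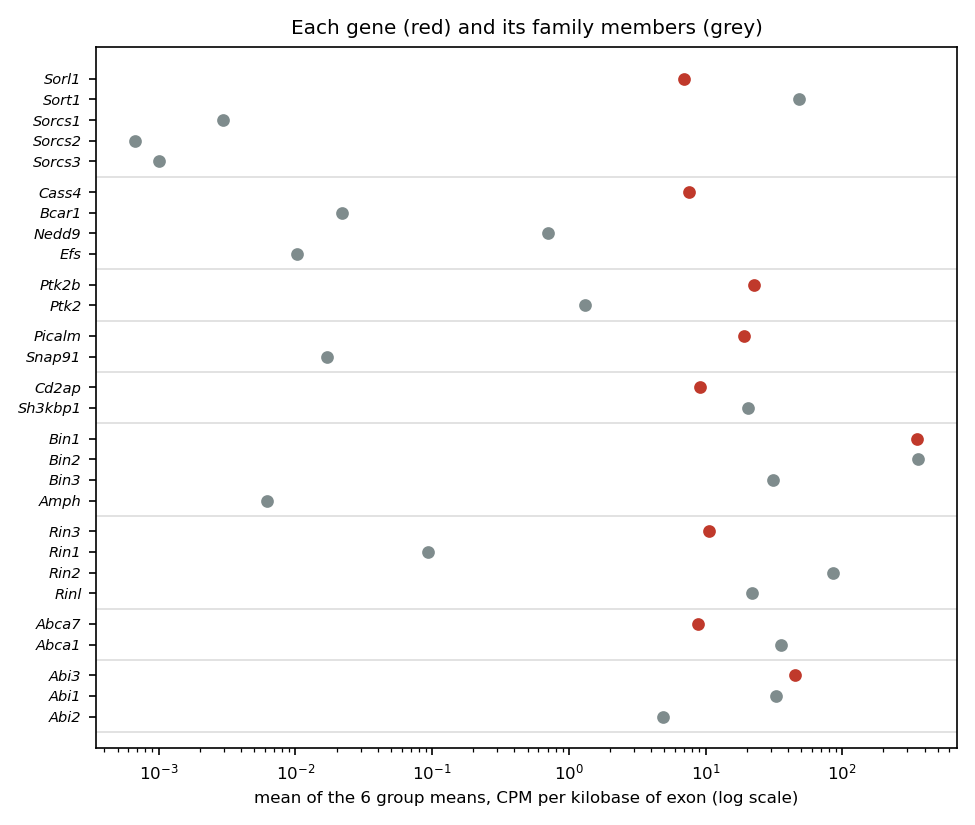
Mean of the 6 group means in CPM per kilobase of exon (x axis, log scale) for each of the 9 genes (red) and its relatives (grey), grouped by family. *Bin1* and *Bin2* lie near 350 CPM per kilobase, and *Picalm*, *Ptk2b* and *Cass4* lie above all their relatives shown, several of which stay under 1 CPM per kilobase.

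Of the 19 relatives 13 were tested, and for 5xFAD against WT 7.69% of them passed under SPF, 7.69% under GF and 23.1% under ABX conditions, beside 4.57%, 15.6% and 14.4% of all genes. *Bin2* fell with 5xFAD in SPF (-0.33, adjusted p = 0.0295) and GF mice (-0.4, adjusted p = 0.000761). In ABX mice *Abi1* fell by 0.36 (adjusted p = 0.0093) and *Sh3kbp1* rose by 0.33 (adjusted p = 0.0166), opposite to its relative *Cd2ap*. *Abca1* was lower in GF than in SPF 5xFAD mice (-0.75, adjusted p = 0.0262) and higher with ABX than under GF conditions (0.69, adjusted p = 0.0191), comparisons that share the GF 5xFAD mice. Of the 13 relatives, 1 was higher and 2 were lower in GF than in SPF 5xFAD mice (23.1%, beside 12.8% of all genes). With ABX against GF conditions 2 were higher and 0 lower in 5xFAD mice (15.4%, beside 10.6%). *Abi1* was lower in GF than in SPF WT mice (-0.5, adjusted p = 0.0134) and higher in ABX than in GF WT mice (0.59, adjusted p = 0.00225), which share the GF WT mice. It was the single relative called in each of these WT comparisons, 7.69% beside 1.62% and 6.88% of all genes. *Snap91* also passed in ABX mice, at a level close to 0 that gives no usable fold change.

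The partners of *Picalm* and *Bin1* at the clathrin coat were taken from a list of 27 genes, all tested. In 5xFAD against WT mice 1 rose and 0 fell under SPF, 4 rose and 2 fell under GF and 3 rose and 1 fell under ABX conditions. These are 3.7%, 22.2% and 14.8% of the list, beside the 4.57%, 15.6% and 14.4% of all genes that passed. *Dab2*, a clathrin adaptor for lipoprotein receptors, rose in all 3 by 1.06 (adjusted p = 0.000715), 0.8 (0.00325) and 1.73 (2.38e-08). The clathrin light chain gene *Cltb* rose by 0.6 (adjusted p = 0.00166) in GF mice, and *Epn2*, an epsin, fell there by 0.93 (adjusted p = 0.000297). The median of the list was 0.0313, 0.047 and 0.187, beside -0.027, -0.0255 and -0.0127 over all genes. Of 18 genes of the Rab5 machinery that *Rin3* acts on, 0 passed in SPF, 2 rose and 1 fell in GF, and 1 rose in ABX mice, or 0%, 16.7% and 5.56% beside the same shares of all genes, with medians of 0.0203, -0.0917 and 0.0544. The Rab5 tether *Eea1* rose by 0.6 (adjusted p = 0.0377) in GF mice.

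*Sorl1* hands cargo to the retromer and to GGA adaptors, a list of 20 genes of which 15 were in the table under the symbols used. Under SPF conditions 0 of 15 passed, under GF 5 rose and 1 fell, and under ABX 1 rose and 0 fell. The shares called were 0%, 40% and 6.67%, beside 4.57%, 15.6% and 14.4% of all genes, and the medians 0.0152, -0.0443 and 0.0898, beside -0.027, -0.0255 and -0.0127. *Gga2*, an adaptor at the Golgi, rose in GF (0.5, adjusted p = 0.0233) and ABX mice (0.72, adjusted p = 0.000508). In GF mice *Vps29*, a retromer subunit, rose by 0.52 (adjusted p = 0.0047) and the sorting nexin gene *Snx3* by 0.51 (adjusted p = 0.000852), while *Snx6*, another sorting nexin, fell by 0.55 (adjusted p = 0.00321).

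The adhesion and Src kinase list around *Ptk2b* and *Cass4* had called genes in both directions. Of its 21 genes tested, 2 rose and 2 fell in SPF, 2 rose and 6 fell in GF and 4 rose and 3 fell in ABX mice, with medians of -0.134, -0.16 and -0.0227 beside -0.027, -0.0255 and -0.0127 over all genes. The shares called were 19%, 38.1% and 33.3%, beside 4.57%, 15.6% and 14.4% of all genes. The Src family kinase gene *Fgr* rose by 2.1 (adjusted p = 5.88e-05), 2.2 (1.21e-05) and 1.57 (0.000255), and *Fyn* by 0.7 (0.00931), 0.63 (0.00596) and 0.49 (0.0198). *Csk*, which encodes the kinase that restrains Src kinases, fell by 0.36 (adjusted p = 0.028) in SPF mice. *Elmo1*, which couples engulfment receptors to Rac, fell by 0.53 (adjusted p = 0.000832) in GF and by 0.31 (0.0321) in ABX mice. *Tln1*, encoding the integrin activator talin, rose by 0.76 (adjusted p = 0.000508) in ABX mice.

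For the WAVE and Arp2/3 complexes, the setting of *Abi3*, 0 of 18 genes passed in SPF, 4 rose in GF, and 2 rose and 2 fell in ABX mice, or 0%, 22.2% and 22.2% beside 4.57%, 15.6% and 14.4% of all genes. The medians were 0.0267, 0.164 and 0.0552, beside -0.027, -0.0255 and -0.0127. *Arpc1b*, a subunit of Arp2/3 in blood cells and macrophages, rose by 0.61 (adjusted p = 2.23e-05) in GF and by 0.48 (0.000194) in ABX mice. Among 7 tested genes of actin capping and Cbl adaptors, which *Cd2ap* binds, 0 passed in SPF, 1 rose in GF, and 3 rose and 1 fell in ABX mice, or 0%, 14.3% and 57.1%, with medians of -0.0285, -0.0642 and -0.0611. *Capzb* rose in GF (0.32, adjusted p = 0.0115) and ABX mice (0.3, adjusted p = 0.00936). Of the 8 ABCA and ABCG transporters tested beside *Abca7*, 0 passed in SPF and 1 in GF mice, *Abca8a*, at a level close to 0. In ABX mice *Abca2* rose by 1.14 (adjusted p = 0.000125) and *Abca3* by 0.61 (adjusted p = 0.00487), 25% of this list, whose medians were 0.125, 0.0694 and 0.123 under SPF, GF and ABX conditions.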

How the data were processed

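RNA of sorted microglia was amplified with the SMARTer Ultra Low Input RNA kit and made into Nextera XT libraries, which do not mark strand, so overlapping antisense transcripts cannot be told apart. Per their methods, the authors used STAR for alignment to GRCm38 and featureCounts for counting. The submitters' processing notes name STAR 2.7.2, featureCounts 1.6.2 and the human build GRCh38.p12, against the mouse build of the methods, which was used here. The authors deposited unnormalized counts and summed exon lengths for each gene. They were used as deposited, without 92 spike-in entries. Groups came from the labels, and the samples are separate mice.

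In R 4.3.3, edgeR 4.0.16 kept 15298 genes by filterByExpr (minimum count 10, minimum total 15), scaled by TMM and fitted 1 term per group over 28 mice. The quasi-likelihood test was applied to 12 comparisons and an F test over the 6 groups, with Benjamini-Hochberg adjustment over all genes tested and a threshold of 0.05. Alternatives were RLE factors, library size alone, other filters and thresholds, DESeq2 1.42.0, voomWithQualityWeights (limma 3.58.1), gene length and GC content offsets, a fit of only the groups compared, 26 mice (without FAD_ABX_1151 and FAD_ABX_1482) and each mouse left out in turn. A term for the second numbering style and 25 mice (also without FAD_GF_201) were chosen after seeing the data. GC content was known for 96.7% of the genes tested. The 9 genes, the pathway and marker lists and the 26 mice were chosen with earlier results of these data known. All 9 genes are named, with their paralogs, at most the 3 largest changes per list and comparison, and the 3 genes most like each gene that passed the F test, of which 1 is not reported here. Marker sums refer to library totals. Read depth leaves at least 354 reads on each of the 9 genes per library, so the spread between mice set the precision. Figures were drawn with matplotlib 3.10.9.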

Additional observations from a re-analysis of the deposited data

Results flagged for a closer look

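A mouse far from the rest of its group was searched for in 45 combinations of gene and group, of which chance marks about 1 in 20. *Picalm* was 311.5 CPM in mouse FAD_ABX_1151, whose nearest ABX 5xFAD mouse had 236.2 CPM. *Sorl1* was 152.6 CPM in mouse FAD_GF_185, with 103.4 CPM in the next GF 5xFAD mouse. *Abca7* was 45.65 CPM in mouse FAD_GF_181, with 59.01 CPM in the next lowest. *Ptk2b* was 142.9 CPM in mouse WT_GF_231, with 173.5 CPM in the next lowest GF WT mouse. *Rin3* was 102 CPM in mouse FAD_ABX_1452, with 75.13 CPM in the next ABX 5xFAD mouse. Without mouse FAD_ABX_1151 the 5xFAD effect on *Picalm* in ABX mice was -0.82 (adjusted p = 3.32e-05).

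The spike-in entries of the table, which no comparison used, held up to 12 reads in a library, in mouse WT_SPF_928, and more than 3 reads in 20 libraries. No spike-in addition is given in the sources used here, and no single entry exceeded 4 reads.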

How the results depend on the processing

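Of the results for single genes, 4451 values kept their side of the threshold under the alternatives, 79 newly passed, 51 no longer passed and 0 changed direction past the threshold. No paired analysis was possible because the mouse numbers are not shared between groups. Leaving out 1 mouse at a time gave 0 to 2 of the 9 genes for 5xFAD against WT in SPF, 1 to 2 in GF and 2 to 3 in ABX mice. It gave 0 to 2 for GF against SPF and 1 to 2 for ABX against GF in 5xFAD mice, and 0 to 1 and 1 to 2 in WT mice. The interaction of ABX with GF ranged from 0 to 2 and the F test from 4 to 7. The shares of all genes called in these fits were not computed, so these ranges describe the 9 genes alone. For 5xFAD against WT in SPF mice the threshold of 0.01 gave 0 genes (beside 2.75% of all genes) and voomWithQualityWeights 4 (14.1%), and in GF mice the threshold of 0.01 gave 1 (8.98%) and library size alone 4 (19.8%). In ABX mice the count was 2 to 4 over all settings, with 4 under library size alone (16.2%) and under GC content offsets (11.8%), where *Bin1* and *Abi3* passed and *Cd2ap* did not. GF against SPF 5xFAD mice gave 2 genes at a threshold of 0.1, with library size alone, with at least 10 counts in every library, with DESeq2, with voomWithQualityWeights and over 26 mice, beside 18.9%, 12.6%, 19.8%, 20.2%, 25.3% and 16.1% of all genes (for DESeq2, here and further on, of those with an adjusted p). ABX against SPF 5xFAD mice gave 1 with voomWithQualityWeights (0.876%). ABX against GF 5xFAD mice gave 2 with gene length offsets (9.06%) and 0 in a fit of only these groups (1.89%). GF against SPF WT mice gave 1 at a threshold of 0.1, without a filter, with at least 10 counts in every library, with DESeq2, with voomWithQualityWeights and over 26 and 25 mice, beside 3.99%, 0.816%, 2.87%, 5.73%, 10.7%, 4.31% and 4.8%, and 2 in a fit of only these groups (9.6%). ABX against GF WT mice gave 1 at 0.01 (1.83%), 4 with voomWithQualityWeights (13.2%), 0 with GC content offsets (1.31%) and 5 in a fit of only these groups (9.62%). The interaction of ABX with GF gave 2 at 0.1 (3.84%), with DESeq2 (4.36%) and over 25 mice (4.94%), and 1 with at least 10 counts in every library (2.91%), with gene length offsets (1.42%) and over 26 mice (2.34%). The F test gave 8 with voomWithQualityWeights (51.4%). Why these counts moved was not tested, beyond the changed threshold, genes or mice that define a setting. The groups of 3 to 6 mice limit the precision more than read depth does, and a gene that misses the threshold is not shown to be equal between groups.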

Other observations

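Genes with group profiles most like those of the 5 genes that passed the F test were looked up among 9051 tested genes whose average log2 CPM was 3 or more, by the Euclidean distance between the 6 centred group means of log2 CPM. These 6 points share their libraries, and a small distance is a description. Among the nearest to *Sorl1* were *Myh10* (0.185) and *Osbpl3* (0.196). For *Cass4* they were *Kcnip3* (0.126), *Siglece* (0.167), an inhibitory sialic acid receptor, and *Kcnd1* (0.177). *Picalm* was followed by *Csnk2a1* (0.126), the catalytic subunit of casein kinase, *Prkdc* (0.132) and *Zcchc7* (0.135), and *Cd2ap* by *Cep350* (0.0732), *Phf10* (0.0935) and *Fam135a* (0.101). *Ptk2b* was closest to *Ptpn11* (0.11), the gene of the phosphatase Shp2, then to *Fbf1* (0.134) and *Tnfrsf23* (0.138). The span between the highest and the lowest group mean was 1.16 for *Sorl1*, 0.979 for *Cass4*, 0.712 for *Picalm*, 0.671 for *Cd2ap* and 0.372 for *Ptk2b* on the log2 scale.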
